A study of Mus musculus with 35 samples.

Results

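The 10 genes described here encode inhibitors that MAP kinase signalling switches on against itself: the dual-specificity phosphatases Dusp1, Dusp2, Dusp4, Dusp5, Dusp6, Dusp8 and Dusp10, and the Sprouty proteins Spry1, Spry2 and Spry4. They were chosen by name, with earlier results of these data known. Each was read from its probe set with the highest mean over 35 arrays of mouse lung, among probe sets that carry a single gene symbol. All 10 were found among 19938 genes so defined. Dusp8 had 2 such probe sets and each of the other genes had 1.

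MAP kinases such as ERK, JNK and p38 are activated by phosphorylation, and a dual-specificity phosphatase removes that phosphate. Dusp1, Dusp2, Dusp4 and Dusp5 are mainly nuclear enzymes, Dusp6 is a cytoplasmic enzyme selective for ERK, and Dusp8 and Dusp10 act chiefly on JNK and p38. Sprouty proteins act further upstream, between receptor tyrosine kinases and the RAS to ERK cascade, and Sprouty 2 is known for its part in branching of the developing airways. Many of these genes are themselves transcribed when MAP kinases are active, which makes a negative feedback loop.

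Each array held the lung RNA of 1 adult male mouse of the inbred strain C57BL/6J, of 20 to 25 g and on a normal diet. Control mice breathed room air spontaneously (non-ventilated, 5 arrays), and their labels record no ventilator settings. All other mice were ventilated for 3 h. At low stretch the tidal volume was 10 mL/kg, the rate 135 per minute and the positive end-expiratory pressure (PEEP) 2 cmH2O. The inspired gas was then room air (5 arrays, low stretch normocapnia) or the same with an inspired CO2 fraction of 0.12 (5 arrays, low stretch hypercapnia). At high stretch the tidal volume was 35 to 40 mL/kg, the peak pressure 27 cmH2O, the rate 30 to 35 per minute and the PEEP 0 cmH2O, at an inspired oxygen fraction of 0.75. That gas held no CO2 (10 arrays, high stretch normocapnia) or a CO2 fraction of 0.12 (10 arrays, high stretch hypercapnia). The protocol text shared by all samples describes anaesthesia and tracheostomy, and in all groups the lungs were lavaged before they were removed and frozen. The comparison of high with low stretch therefore also changes PEEP, breathing rate and oxygen. In RNA of whole lung, fewer cells of a type and less RNA per cell cannot be told apart.

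Levels are log2 signals, so a difference of 1 is a doubling, and a level is compared only within its own probe set. Array medians lay between 6.96 and 7.05, and no 2 arrays held identical values. Surfactant, alveolar and club cell genes Sftpc, Ager and Scgb1a1 were read as a check of the tissue, and their mean signals over the 35 arrays were 14.02, 12.92 and 13.74. Changes are limma estimates with their standard errors (SE), and a gene was called higher or lower at a Benjamini-Hochberg adjusted p under 0.05 over all 19938 genes.

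Promoter sequence was on hand for 8 of the 10 genes, from RefSeq on GRCm38.p6, as the 250 bases before the annotated start, and Dusp4 and Spry4 had no entry in that table. These 4 stretches are shown because they hold the palindromic cyclic AMP response element TGACGTCA, its shorter core TGACG, which is also part of the full element, or a CArG box, the element bound by serum response factor. Capitals mark those matches on either strand, and each stretch is printed 5′ to 3′ on the strand of its gene.
Dusp1, minus strand, chr17:26508473-26508722: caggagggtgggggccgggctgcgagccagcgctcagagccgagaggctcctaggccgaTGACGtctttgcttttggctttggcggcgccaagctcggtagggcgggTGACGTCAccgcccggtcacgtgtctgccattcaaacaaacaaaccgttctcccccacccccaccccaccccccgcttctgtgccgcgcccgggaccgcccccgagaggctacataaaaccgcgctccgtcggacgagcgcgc
Dusp5, plus strand, chr19:53528895-53529144: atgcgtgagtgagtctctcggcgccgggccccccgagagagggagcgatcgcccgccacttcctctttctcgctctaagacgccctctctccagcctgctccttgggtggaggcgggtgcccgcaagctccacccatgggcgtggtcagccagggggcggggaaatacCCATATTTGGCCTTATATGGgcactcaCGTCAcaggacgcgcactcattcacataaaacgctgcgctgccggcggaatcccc
Dusp8, minus strand, chr7:142095373-142095402: gcccgctccgcTGACGTCAcctgcccccga
Dusp8, minus strand, chr7:142095329-142095358: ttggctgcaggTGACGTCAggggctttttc
The Dusp8 stretches are cut to 30 bases because the start used for that gene lies inside its annotated span. On either strand, the full element TGACGTCA occurred before Dusp1 and Dusp8 and in 1.55% of all 32851 promoter windows of this length. Its core TGACG occurred before Dusp1, Dusp5 and Dusp8 and in 17.8% of the windows. A CArG box occurred before Dusp5 in 2 adjacent copies, from 82 to 73 and from 72 to 63 bases before the start, and in 1.47% of the windows. The AP-1 site TGANTCA, the ETS site CCGGAA, the NF-kappaB site and the glucocorticoid response element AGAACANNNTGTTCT were found in none of the 8 windows, against 6.75, 12, 7.25 and 0.00913% of all windows. A match describes letters, not binding, and the missing letters say nothing of a factor outside these windows. CCGGAA does not cover every form of the ETS site, and other forms were not searched. The glucocorticoid element was so rare over all windows that its absence from these 8 is uninformative. With only 8 windows, the absence of the AP-1, ETS and NF-kappaB sites says little as well.

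High stretch without CO2 raised most of these genes. Against low stretch normocapnia 8 of the 10 rose and none fell, where 18.3% of all genes were called in either direction and 8.72% were called higher. Dusp8, Spry4, Dusp10, Spry2, Dusp6, Dusp5, Dusp1 and Spry1 rose, and Dusp2 and Dusp4 did not pass the test. The median change of the 10 was 0.61, against -0.02 over all genes. In 7 of the 10 every high stretch array lay above every low stretch array, against 3.73% of all genes.

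With CO2 in both groups, 7 of the 10 rose with high stretch and none fell, where 10.1% of all genes were called and 5.43% were called higher. These were the genes above without Spry1. The median change was 0.36, against -0.03 over all genes. Only Dusp5, Dusp8 and Dusp10 had no overlap between the arrays of both groups, a state reached upward by 1.84% of all genes. The comparisons with and without CO2 share no arrays.

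**Figure D1:**
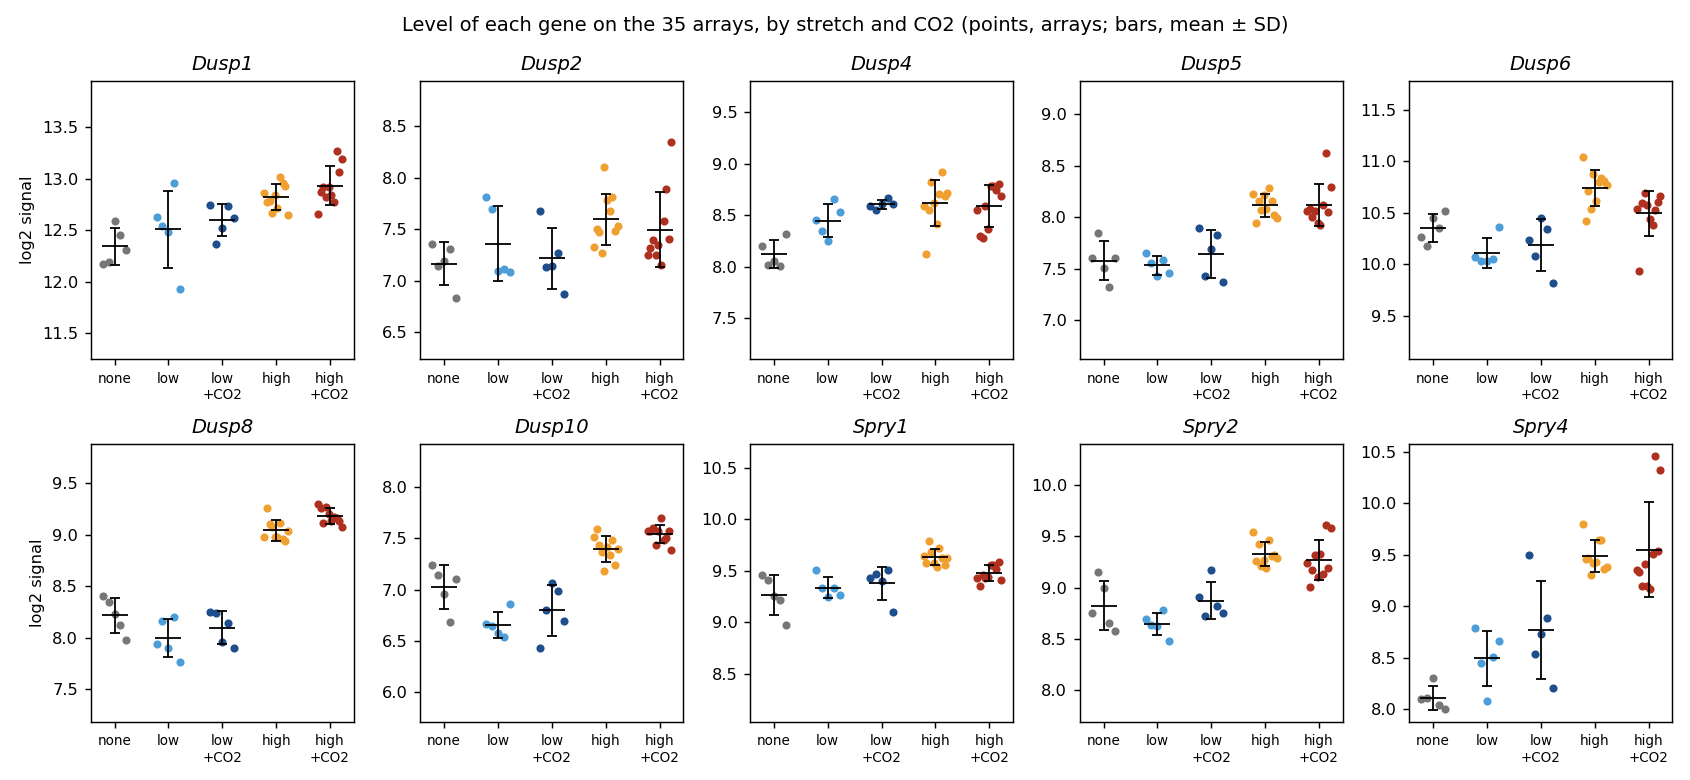
Log2 signal of each gene on the 35 arrays, in the order non-ventilated, low stretch without and with CO2, and high stretch without and with CO2; points are arrays, and bars are the mean ± SD of 5, 5, 5, 10 and 10 arrays. All panels span the same number of log2 units. Every high stretch array of Dusp8 lies above every other array, and 2 high stretch hypercapnia arrays of Spry4 lie above 10.

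Dusp8, a phosphatase directed at JNK and p38, had the largest change of the 10 in both stretch comparisons. The 5 non-ventilated arrays measured 8.40, 8.35, 8.23, 8.13 and 7.98. At low stretch the arrays stood at 7.94, 8.16, 7.90, 8.20 and 7.77 without CO2 and 8.25, 8.24, 7.96, 8.14 and 7.90 with it. The 10 high stretch normocapnia arrays ran from 8.94 to 9.26 with a median of 9.01, and the 10 high stretch hypercapnia arrays from 9.07 to 9.30 with a median of 9.17. No high stretch array overlapped with any array of the other 3 groups. Dusp8 rose by 1.05 with high stretch without CO2 (SE 0.07, limma adjusted p 9.35e-13), a 2.07-fold higher signal. With CO2 it rose by 1.09 (SE 0.07, limma adjusted p 5.95e-13). Its other probe set rose by 1.19 and by 1.17 in the same comparisons (SE 0.11 in each, limma adjusted p 9.46e-10 and 3.22e-09).

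Dusp10, which also acts on JNK and p38, was the only one of the 10 called lower with ventilation at low stretch without CO2. In low stretch hypercapnia Dusp10 stood 0.23 below the non-ventilated mean and was not called (limma adjusted p 0.114). Its non-ventilated arrays measured 7.24, 7.14, 6.96, 6.68 and 7.10. The low stretch arrays measured 6.66, 6.65, 6.58, 6.54 and 6.86 without CO2, and 6.43, 6.80, 7.07, 6.99 and 6.70 with it. High stretch normocapnia arrays ran from 7.18 to 7.59 (median 7.40) and high stretch hypercapnia arrays from 7.39 to 7.70 (median 7.57). Without CO2 1 low stretch array lay within the non-ventilated range and 4 lay below it, while 4 of the 5 low stretch hypercapnia arrays lay within it, and both high stretch groups lay above both low stretch groups. High stretch raised Dusp10 by 0.74 without CO2 (SE 0.08, limma adjusted p 5.34e-08) and by 0.74 with it (SE 0.08, limma adjusted p 1.03e-07).

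Dusp5, a nuclear phosphatase of ERK, rose at high stretch with and without CO2. Non-ventilated arrays measured 7.60, 7.84, 7.51, 7.32 and 7.60. The low stretch arrays gave 7.65, 7.55, 7.43, 7.59 and 7.45 without CO2 and 7.89, 7.42, 7.69, 7.82 and 7.37 with it. High stretch arrays ran from 7.94 to 8.28 (median 8.12) without CO2 and from 7.92 to 8.62 (median 8.06) with it. No high stretch array fell within the range of the other 3 groups. Dusp5 rose with high stretch by 0.58 without CO2 (SE 0.09, limma adjusted p 1.96e-05) and by 0.48 with it (SE 0.09, limma adjusted p 0.000556).

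Dusp6, the cytoplasmic phosphatase of ERK, had its highest mean in high stretch without CO2. The non-ventilated arrays measured 10.26, 10.18, 10.45, 10.35 and 10.52. At low stretch the values were 10.07, 10.04, 10.04, 10.05 and 10.36 without CO2 and 10.24, 10.08, 10.45, 10.34 and 9.82 with it. High stretch arrays ran from 10.42 to 11.04 (median 10.78) without CO2 and from 9.93 to 10.70 (median 10.56) with it. The high stretch and low stretch arrays did not overlap without CO2, and 7 of 10 high stretch arrays lay above all low stretch arrays with CO2. Dusp6 rose with high stretch by 0.63 without CO2 (SE 0.10, limma adjusted p 2.72e-05). With CO2 it rose by 0.31 (SE 0.10, limma adjusted p 0.0477). That second call was close to the threshold and was lost without low stretch hypercapnia replicate 1, 2 or 5, or high stretch hypercapnia replicate 1, 3, 4, 5, 6, 8, 9 or 10, with changes of 0.22 to 0.32 and limma adjusted p of 0.0529 to 0.213.

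Dusp1, a nuclear phosphatase of ERK, JNK and p38 and a known target of glucocorticoids, rose by a small amount with high stretch. The non-ventilated arrays measured 12.18, 12.19, 12.59, 12.46 and 12.31. Low stretch arrays measured 12.63, 12.54, 12.49, 12.96 and 11.93 without CO2 and 12.75, 12.37, 12.53, 12.73 and 12.62 with it. High stretch arrays ran from 12.65 to 13.02 (median 12.81) without CO2 and from 12.66 to 13.27 (median 12.90) with it. High and low stretch arrays overlapped in normocapnia, where 1 low stretch array at 12.96 lay among the high ones, and 9 of 10 high stretch hypercapnia arrays lay above all low stretch hypercapnia arrays.

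The stretch change of Dusp1 was 0.31 without CO2 (SE 0.11, limma adjusted p 0.0394) and 0.33 with it (SE 0.11, limma adjusted p 0.0404). Both calls of Dusp1 depended on single arrays. Without low stretch normocapnia replicate 5, its lowest array, the first became 0.17 (limma adjusted p 0.282). Leaving out replicate 2 or 3 of low stretch normocapnia, or replicate 1, 5, 7, 8 or 9 of high stretch normocapnia, also ended that call, with adjusted p from 0.0534 to 0.087. The call with CO2 was lost without low stretch hypercapnia replicate 2, 3 or 5, or high stretch hypercapnia replicate 8, 9 or 10, with changes of Dusp1 from 0.28 to 0.34 and adjusted p from 0.0633 to 0.154.

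Dusp2 and Dusp4, a pair of nuclear phosphatases, passed neither stretch comparison. For Dusp2, best known from activated leukocytes, the change was 0.23 without CO2 (95% interval -0.09 to 0.56, limma adjusted p 0.372) and 0.28 with it (-0.05 to 0.60, limma adjusted p 0.3). Dusp2 arrays ran from 6.83 to 7.36 without ventilation, from 6.87 to 7.82 over both low stretch groups and from 7.15 to 8.34 over both high stretch groups, so the groups overlapped. For Dusp4 the change was 0.17 without CO2 (-0.03 to 0.36, limma adjusted p 0.277) and -0.02 with it (-0.22 to 0.18, limma adjusted p 0.939). The Dusp4 arrays ran from 8.01 to 8.32 without ventilation, from 8.25 to 8.67 at low stretch and from 8.13 to 8.92 at high stretch. All 4 ventilated groups had a higher mean of Dusp4 than the non-ventilated group. The 5 low stretch hypercapnia arrays, from 8.55 to 8.67, all lay above the non-ventilated arrays, as was the case for 4.96% of all genes.

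Among the Sprouty genes Spry4 changed most. Its non-ventilated arrays measured 8.10, 8.11, 8.30, 8.04 and 8.00. Under low stretch Spry4 stood at 8.78, 8.45, 8.08, 8.50 and 8.66 without CO2, and 9.50, 8.53, 8.73, 8.88 and 8.20 with it. High stretch normocapnia arrays ran from 9.31 to 9.80 with a median of 9.44. The high stretch hypercapnia arrays ran from 9.17 to 10.46 with a median of 9.38, and replicates 8 and 10 stood at 10.46 and 10.32 while the other 8 reached at most 9.54. High and low stretch did not overlap without CO2, and with CO2 the low stretch array at 9.50 lay among the high stretch arrays.

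High stretch raised Spry4 by 0.99 without CO2 (SE 0.17, limma adjusted p 7.98e-05), a 1.99-fold higher signal. With CO2 the rise of Spry4 was 0.78 (SE 0.17, limma adjusted p 0.00277). Against non-ventilated lung, Spry4 had the largest change of the 10, at 1.38 in high stretch normocapnia (SE 0.17, limma adjusted p 8.73e-08) and 1.44 in high stretch hypercapnia (SE 0.17, limma adjusted p 4.79e-08), a 2.60-fold and a 2.71-fold higher signal.

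Spry2 rose in both stretch comparisons. Non-ventilated arrays measured 8.75, 9.15, 8.99, 8.65 and 8.57. Low stretch arrays measured 8.70, 8.64, 8.63, 8.78 and 8.48 without CO2 and 8.91, 8.72, 9.17, 8.82 and 8.75 with it. High stretch arrays ran from 9.19 to 9.54 (median 9.29) without CO2 and from 9.00 to 9.61 (median 9.22) with it. The high stretch normocapnia arrays lay above all non-ventilated and low stretch arrays, while 3 high stretch hypercapnia arrays fell within the range of low stretch hypercapnia. The rise of Spry2 was 0.68 without CO2 (SE 0.09, limma adjusted p 1.55e-06) and 0.39 with it (SE 0.09, limma adjusted p 0.00382).

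Spry1 passed the stretch comparison without CO2 and not that with CO2, and the difference between both changes did not pass its own test. Its non-ventilated arrays measured 9.46, 9.41, 9.25, 9.21 and 8.97. Low stretch gave 9.51, 9.33, 9.24, 9.33 and 9.26 without CO2 and 9.43, 9.47, 9.40, 9.51 and 9.10 with it. High stretch arrays ran from 9.54 to 9.79 (median 9.62) without CO2 and from 9.35 to 9.59 (median 9.45) with it. High stretch arrays lay above all low stretch arrays without CO2 and overlapped with them when CO2 was given. Spry1 rose by 0.30 without CO2 (SE 0.06, limma adjusted p 0.00108), and its change with CO2 was 0.09 (95% interval -0.04 to 0.23, limma adjusted p 0.406).

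**Figure D2:**
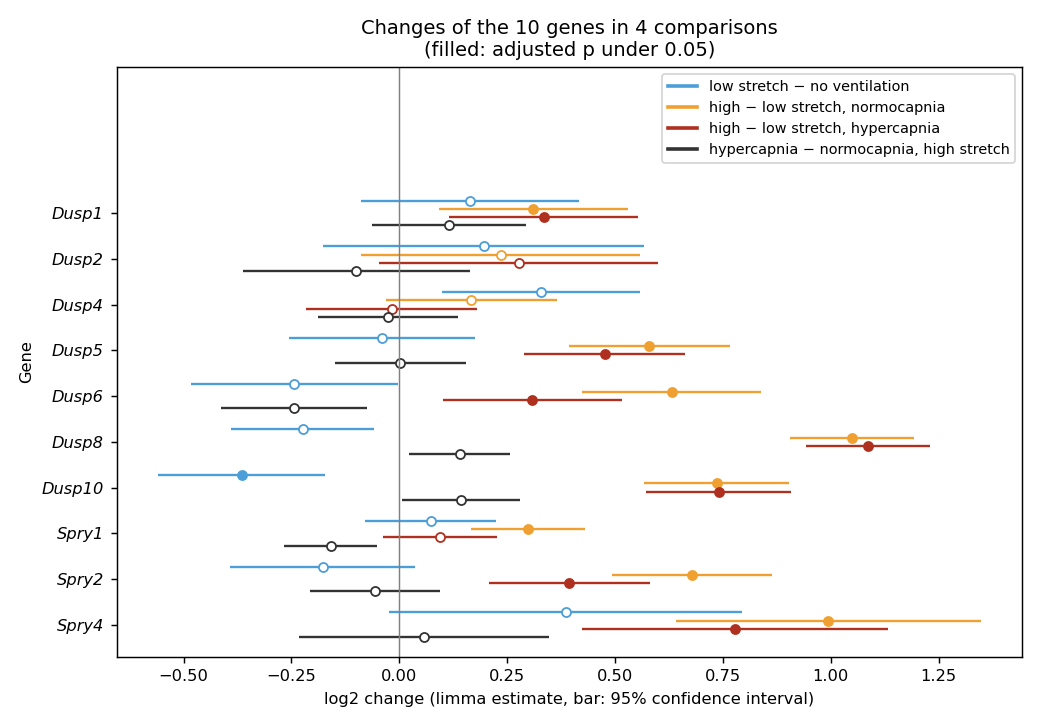
Log2 change of each gene in 4 comparisons, with filled points for adjusted p under 0.05, open points for the rest and bars for the 95% confidence interval of the limma estimate. The filled points of both stretch comparisons lie to the right of 0, and Dusp10 has the only filled point to its left, for low stretch against no ventilation.

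Ordered by group mean, no gene had more than 1 called step between neighbouring groups. The step of Dusp8 and Dusp10 lay between non-ventilated and high stretch normocapnia lung, at 0.82 and 0.37 (limma adjusted p 3.38e-11 and 0.000471). That of Dusp5 and Spry4 lay between low stretch hypercapnia and high stretch normocapnia, at 0.47 and 0.72 (limma adjusted p 0.000204 and 0.00233), a comparison in which 21.7% of all genes were called. For Spry2 it lay between low stretch hypercapnia and high stretch hypercapnia, at 0.39. In these 5 genes the 3 groups below the step and the 2 above it held no called difference between neighbours. Groups below the step that are not neighbours could still differ. Dusp10 was lower in low stretch normocapnia than without ventilation, by 0.37 (limma adjusted p 0.00859). The Spry4 means below its step ran from 8.11 without ventilation to 8.77 in low stretch hypercapnia. Dusp1, Dusp2, Dusp4, Dusp6 and Spry1 had no called neighbouring step at all.

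Ventilation at low stretch in room air, against no ventilation, called 1 of the 10, where 11.8% of all genes were called and 5.17% were called lower. That gene was Dusp10, which fell by 0.37 (SE 0.10, limma adjusted p 0.00859). Just short of the threshold were Dusp4, at a change of 0.33 (limma adjusted p 0.0518), and Dusp8, at -0.22 (limma adjusted p 0.0702). Dusp4 passed without non-ventilated replicate 5 or low stretch normocapnia replicate 3, at 0.38 in each case (limma adjusted p 0.0317 and 0.031). Without other single arrays its change was as small as 0.28, with limma adjusted p up to 0.15. Dusp8 passed without non-ventilated replicate 5 or low stretch normocapnia replicate 2 or 4, at -0.27 to -0.28 (limma adjusted p 0.0191 to 0.0405). Without other single arrays the Dusp8 change was as small as -0.17, with limma adjusted p up to 0.245. The other Dusp8 probe set changed by -0.13 and was not called (SE 0.13, limma adjusted p 0.627). This comparison and that of high against low stretch in normocapnia share the low stretch arrays, and for Dusp8 the values are -0.22 and 1.05, for Dusp10 -0.37 and 0.74, and for Spry4 0.39 and 0.99.

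Marker genes of other cells also moved in that comparison, in which 6.63% of all genes were called higher and 5.17% lower. Besides the cell lists given here, those of T and natural killer cells, alveolar type 2 cells and platelets, among others, held called genes. Of 12 neutrophil markers 11 rose and none fell, with a median change of 2.91, and their mean level ran from 6.52 to 8.54 over the non-ventilated arrays and from 9.28 to 10.07 over the low stretch normocapnia arrays. All 8 measured B cell markers fell, with mean levels from 7.77 to 8.42 and from 6.56 to 7.08, and 7 of 11 endothelial markers fell, with mean levels from 10.97 to 11.06 and from 10.59 to 10.75. Their part in the fall of Dusp10 was not tested. Glucocorticoid receptor targets rose as well, 8 of 9 with a median of 0.66, led by Fkbp5 at 2.46 (limma adjusted p 1.02e-11), while the change of Dusp1 was 0.16 (95% interval -0.09 to 0.42, limma adjusted p 0.493). That value moved with single arrays, with no call in either case: the Dusp1 change was 0.31 without low stretch normocapnia replicate 5 (limma adjusted p 0.0772) and 0.05 without low stretch normocapnia replicate 4 (limma adjusted p 0.877).

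Between high and low stretch, by contrast, none of the 12 neutrophil markers was called in either direction by limma, with 0 calls also in hypercapnia. Their mean level per array ran from 9.20 to 10.27 in high stretch normocapnia and from 8.98 to 10.40 in high stretch hypercapnia, and from 8.98 to 10.59 in low stretch hypercapnia. B cell markers rose, 6 of 8 without CO2 and 4 of 8 with it. Their mean level ran from 6.95 to 7.45 in high stretch normocapnia and from 6.74 to 7.21 in high stretch hypercapnia, against 6.35 to 6.84 in low stretch hypercapnia. Of 11 endothelial markers 2 fell without CO2, and with it 1 rose and 2 fell. The part of these markers in the rise of the phosphatase and Sprouty genes was not tested.

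Against non-ventilated lung all 10 genes rose in high stretch normocapnia, where 36.3% of all genes were called and 17.4% were called higher. In high stretch hypercapnia 8 of the 10 rose, where 33.8% were called and 16.3% were called higher. These comparisons share the non-ventilated arrays. Dusp4, which was not called between high and low stretch, rose here by 0.50 in high stretch normocapnia (SE 0.10, limma adjusted p 0.000102) and by 0.47 in high stretch hypercapnia (SE 0.10, limma adjusted p 0.000236). Dusp6 did not pass in high stretch hypercapnia, at 0.14 (95% interval -0.06 to 0.35, limma adjusted p 0.312), and rose by 0.39 in high stretch normocapnia (SE 0.10, limma adjusted p 0.00258). Without the least alike array of each group, a setting chosen after seeing the data, the change of Dusp6 in high stretch hypercapnia was 0.25 and passed (limma adjusted p 0.0357).

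Dusp2 rose by 0.43 in high stretch normocapnia (SE 0.16, limma adjusted p 0.0315) and did not pass in high stretch hypercapnia (0.33, limma adjusted p 0.112). The first call of Dusp2 was lost without non-ventilated replicate 2 or 5, or high stretch normocapnia replicate 5 or 8, with changes from 0.35 to 0.42 and adjusted p from 0.0505 to 0.114. Spry1 rose by 0.37 in high stretch normocapnia (limma adjusted p 1.98e-05) and by 0.21 in high stretch hypercapnia (limma adjusted p 0.0101). Without non-ventilated replicate 5, its lowest array, the second change of Spry1 was 0.14 and was not called (limma adjusted p 0.0866).

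Added CO2 called none of the 10 at either stretch level. At low stretch 0.115% of all genes were called by limma, and of the 10 only Spry2 had an unadjusted p under 0.05, with a change of 0.23 (95% interval 0.01 to 0.44, limma adjusted p 0.513). At high stretch 5.56% of all genes were called. Of the 10, 4 had an unadjusted p under 0.05. That is a looser threshold than the one behind the shares of all genes given here for either stretch level, so these counts cannot be set against them. Both directions occurred among these 4 genes. Dusp6 stood at -0.24 (95% interval -0.41 to -0.08, limma adjusted p 0.08) and Spry1 at -0.16 (-0.27 to -0.05, limma adjusted p 0.0715), with 7 of 10 hypercapnia arrays of Spry1 below all normocapnia arrays. Dusp8 stood at 0.14 (0.02 to 0.26, limma adjusted p 0.173) and Dusp10 at 0.14 (0.01 to 0.28, limma adjusted p 0.26). Without high stretch normocapnia replicate 2, Dusp6 passed at -0.28 (limma adjusted p 0.037). That was the only call of Dusp6 in 20 fits without 1 array. Its changes in these fits ran from -0.28 to -0.18, with limma adjusted p from 0.037 to 0.178.

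The other 6 genes had changes between -0.10 and 0.11 with CO2 at high stretch. Their intervals all included 0, and that of Spry4, from -0.23 to 0.35, was the widest. On high stretch hypercapnia arrays the SD of Spry4 was 0.46, against 0.15 without CO2. A permutation test on deviations from the median did not detect a difference in spread (n = 10 and 10, p 0.2, the smallest of 10 such tests, 1 per gene).

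The change with stretch was compared between CO2 levels by the interaction. It called none of the 10 and 0% of all genes, with 893 of 19938 genes and 3 of the 10 at an unadjusted p under 0.05 in limma. These 3 were Dusp6 at -0.32 (SE 0.14), Spry2 at -0.28 (SE 0.13) and Spry1 at -0.20 (SE 0.09), each with a limma adjusted p of 0.997. The interaction of Dusp8 was 0.04 (95% interval -0.17 to 0.24) and that of Dusp10 was 0.00 (-0.23 to 0.24).

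**Figure D3:**
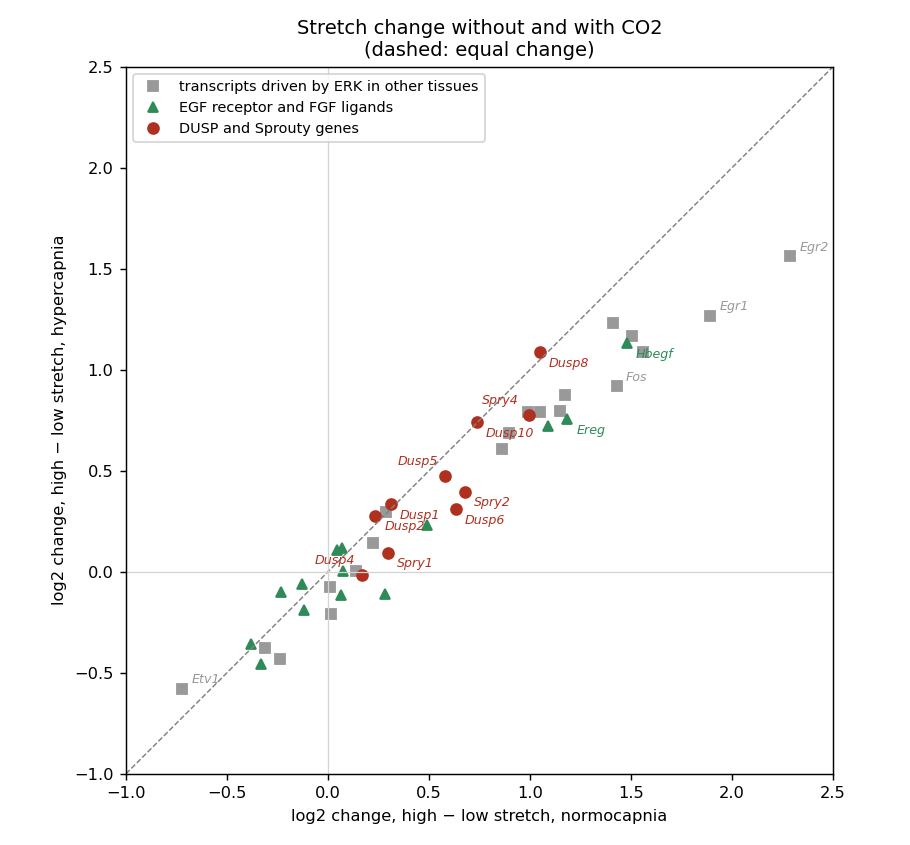
Log2 change with high stretch in hypercapnia against that in normocapnia for the 10 genes (circles), 20 transcripts driven by ERK in other tissues (squares) and 14 ligands of EGF and FGF receptors (triangles); the dashed line marks equal change. Dusp8 and Dusp10 lie near the line, and Dusp4, Dusp5, Dusp6, Spry1, Spry2 and Spry4 lie below it. The interaction called no gene.

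Other inhibitors of the same families were read as whole lists, as were the ligands, receptors, kinases and ERK-driven transcripts. Their counts stand beside 8.72% of all genes called higher and 9.56% called lower with high stretch in normocapnia, and 5.43% and 4.69% in hypercapnia. Of 10 further MAP kinase phosphatases, 2 rose and none fell with high stretch in normocapnia, with a median of 0.00: Dusp16, a phosphatase of JNK, at 0.47 (SE 0.10, limma adjusted p 0.00114), and Dusp3 at 0.32 (SE 0.06, limma adjusted p 0.000156). In hypercapnia the same 2 rose, and Dusp7, a cytoplasmic relative of Dusp6, fell by 0.25 (SE 0.08, limma adjusted p 0.0332). Of 4 other Sprouty and Spred inhibitors 1 rose in each comparison, Spred1, an inhibitor of RAS activation, at 0.48 without CO2 (SE 0.09, limma adjusted p 0.000234) and 0.28 with it (SE 0.09, limma adjusted p 0.0449).

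Ligands act upstream of the Sprouty proteins. Of 14 measured ligands of EGF and FGF receptors and related ones, 4 rose and 1 fell with high stretch in normocapnia, and 3 rose and 1 fell in hypercapnia. Hbegf, a membrane-anchored ligand of the EGF receptor, ran from 9.14 to 10.93 on low stretch normocapnia arrays and from 10.64 to 11.78 on high stretch normocapnia arrays, a rise of 1.48 (SE 0.19, limma adjusted p 8.38e-07). Ereg, another such ligand, ran from 5.43 to 5.76 and from 6.24 to 7.37, a rise of 1.18 (SE 0.13, limma adjusted p 3.06e-08), and it fell by 0.58 with CO2 at high stretch (SE 0.11, limma adjusted p 0.000681). The largest fall of the list was that of Fgf10, a ligand from lung mesenchyme, at -0.38 (SE 0.09, limma adjusted p 0.00201).

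The receptors and kinases of the cascade moved in both directions. Of 17 measured receptor and RAS genes 3 rose and 2 fell with high stretch in normocapnia, the largest at 0.27 for Nras and -0.29 for Fgfr2. Of 6 measured kinases of the ERK cascade 2 rose, led by Rps6ka3 at 0.32, and of 16 kinases of the JNK and p38 cascades 4 rose and 2 fell. Among the last, Map2k3, an activator of p38, rose by 0.77 (SE 0.09, limma adjusted p 1.04e-07) and Map2k6, another activator of p38, fell by 0.55 (SE 0.16, limma adjusted p 0.0111).

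Transcripts known to follow ERK activity in other tissues rose with high stretch, 13 of 20 without CO2 with 2 falling, and 12 of 20 with CO2 with 3 falling. Egr2 had the largest rise, 2.29 (SE 0.18, limma adjusted p 1.45e-11), and Etv1, an ETS factor, the largest fall, -0.72 (SE 0.12, limma adjusted p 5.46e-05). Egr1 ran from 7.51 to 8.30 on low stretch normocapnia arrays and from 8.95 to 10.28 on high stretch normocapnia arrays, a rise of 1.89 (SE 0.22, limma adjusted p 1.17e-07). Fos rose by 1.43 (SE 0.21, limma adjusted p 4.47e-06). With CO2 at high stretch 7 of these 20 fell and none rose, where 3.07% of all genes were called lower and 2.49% higher. None of the 10 phosphatase and Sprouty genes was called there, with Dusp6 and Spry1 just short (limma adjusted p 0.08 and 0.0715).

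Animals of one group differed from each other in several of these genes at once. Deviations of each array from its group mean were correlated over the 35 arrays for the 45 pairs of the 10 genes, a test added after the levels had been seen, with 20000 permutations within groups. For 5 pairs both Pearson's r and Spearman's rho passed at an adjusted p under 0.05, all with a positive sign. The strongest was Dusp5 with Spry4, at r 0.79 and rho 0.72 (adjusted permutation p 0.0022 for both, from 5e-05, the smallest p these permutations give). It was 0.76 without the 2 arrays farthest from the median, 0.65 within high stretch normocapnia and 0.93 within high stretch hypercapnia.

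Dusp2 with Spry4 had r 0.69 and rho 0.57 over the 35 arrays (adjusted permutation p 0.0067 and 0.013), but r was 0.01 within high stretch normocapnia and 0.89 within high stretch hypercapnia. Dusp5 with Spry2 had r 0.64 and rho 0.57 (adjusted permutation p 0.0075 and 0.013). Spry2 with Spry4 had r 0.57 and rho 0.52 (adjusted permutation p 0.015 and 0.023), and Dusp2 with Dusp5 had r 0.55 and rho 0.51 (adjusted permutation p 0.027 and 0.023). High stretch hypercapnia replicates 8 and 10 were high in Spry4, Dusp5, Spry2 and Dusp2, and without them r was 0.70 for Dusp5 with Spry4, 0.55 for Dusp2 with Spry4, 0.52 for Dusp5 with Spry2, 0.46 for Dusp2 with Dusp5 and 0.37 for Spry2 with Spry4. Without the 2 arrays farthest from the median of the first gene of each pair, these 4 correlations other than the strongest were 0.67, 0.48, 0.52 and 0.53 in the order Dusp2 with Spry4, Dusp5 with Spry2, Spry2 with Spry4 and Dusp2 with Dusp5. Over all genes, high stretch hypercapnia replicates 8 and 10 also had a low mean r with their own group, 0.99038 and 0.99014. Replicate 2 had 0.99005, and the other arrays of that group ran from 0.99259 to 0.99358. How common such correlations are among all pairs of genes was not tested.

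**Figure D4:**
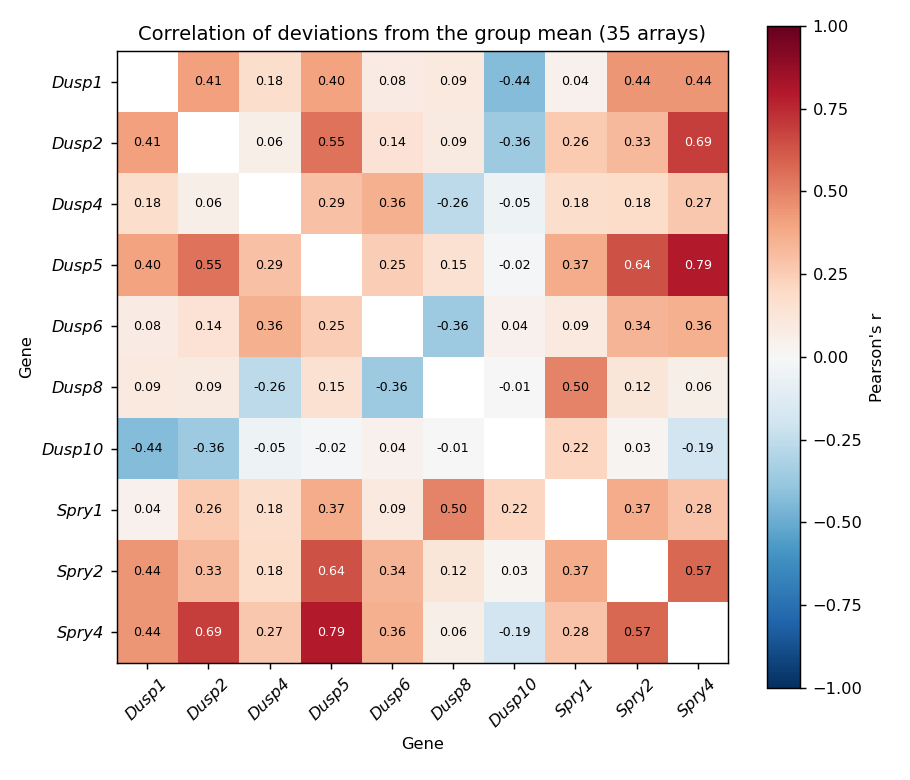
Pearson's r between the 10 genes for deviations of the 35 arrays from their group means; the colour runs from -1 (blue) to 1 (red) and each cell prints its r. The highest value, 0.79, joins Dusp5 and Spry4, and Dusp10 and Dusp8 show no pair with either of them above 0.2.

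Within each high stretch group of 10 arrays the 10 genes were also set against Egr1 and against the mean of the 12 neutrophil markers, 40 relations in all, and none passed after adjustment over the 40. The smallest adjusted p was 0.0516, in high stretch hypercapnia with the neutrophil mean: for Dusp2 r was 0.79 (permutation p 0.00251) and rho 0.78 (permutation p 0.0103, adjusted 0.206), and for Spry4 r was 0.77 (permutation p 0.00258) and rho 0.82 (permutation p 0.00556, adjusted 0.206). Without the 2 arrays farthest from the median, replicates 6 and 10, r was 0.49 for Dusp2 and 0.60 for Spry4. Dusp10 had the opposite sign there, at r -0.79 (permutation p 0.00639, adjusted 0.0852) and rho -0.65 (permutation p 0.0488, adjusted 0.278), with r -0.47 without those 2 arrays. In high stretch normocapnia the same correlations were 0.21 for Dusp2, -0.07 for Spry4 and -0.60 for Dusp10, the last being 0.10 without replicates 2 and 5.

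Over all 35 arrays the genes most alike in pattern to each of the 10 were sought among the 19938, as a description in which differences between groups enter. Dusp8 was most like Srf (r 0.97), Jund (r 0.96) and Eppk1 (r 0.95), and with group means removed these were 0.46, 0.37 and 0.58. Spry4 was most like Pvr and Arid5a (r 0.96 each) and Nup98 (r 0.95), and with group means removed these remained at 0.91, 0.90 and 0.90. Dusp5 and Spry2 shared their nearest gene, Slc25a25, at r 0.94 and 0.90. The nearest gene was Csrnp1 for Dusp1 (r 0.90), Nfkbid for Dusp2 (r 0.89), Vcl for Dusp10 (r 0.90) and Ran for Dusp6 (r 0.88). For Dusp4 it was Cpsf4 (r 0.83) and for Spry1 it was Rcc1l (r 0.84).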

How the data were processed

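RNA of 35 mouse lungs was measured on 1 Affymetrix array each. The deposited values are log2 signals made by the authors with RMA, per the submitters' processing notes, which also name Affymetrix Expression Console and Partek with no version or role. Of 35557 probe sets 21789 carried 1 gene symbol, 1621 several and 12147 were not in the gene table supplied, and 999 of the 19938 genes had more than 1 probe set. Precision is set by how many arrays a group holds, and the labels, which call the animals biological replicates, name no batch.

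A linear model with 1 mean per group was fitted to all 35 arrays (limma 3.58.1, R 4.3.3, lmFit with eBayes, no filter on level). Each contrast was tested two-sided with Benjamini-Hochberg adjustment over all genes. Relations between genes used two-sided permutation tests in numpy 2.4.6. The fit was tested on simulated data. Alternatives were a fit of the compared groups alone, a replicate block, array weights, eBayes with trend and robust, genes above the median level, the mean of probe sets, arrays centred on their median, another round of quantile normalization, and leaving out single arrays. The array spread as a covariate, leaving out the least alike array of each group, and the other Dusp8 probe set were chosen after seeing the data.

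The 10 genes and the pathway and marker lists were chosen with earlier results of these data known. The 10 genes are named throughout, with Egr1, Fos, Hbegf, Ereg and Fkbp5, the largest called rise and fall of each pathway list in a comparison, and up to 3 genes of highest r to each of the 10, leaving out predicted genes and clones, small RNAs and chemosensory receptors. Dusp3 was named to complete a count, after its values were seen.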

Additional observations from a re-analysis of the deposited data

Results flagged for a closer look

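Single arrays stood apart from the rest of their group in 4 of the 50 combinations of gene and group, by Dixon's ratio of the gap to the range, a rule that flags about 1 in 20 by chance. The highest Dusp5 value in high stretch hypercapnia was 8.62 in replicate 8, with the next array at 8.29. The highest Dusp6 value in low stretch normocapnia was 10.36 in replicate 5, with the next at 10.07. The lowest Dusp6 value in high stretch hypercapnia was 9.93 in replicate 2, with the next at 10.38, and that array was also the least like its own group over all genes. The lowest Spry1 value in low stretch hypercapnia was 9.10 in replicate 5, with the next at 9.40.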

How the results depend on the processing

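No called change of the 10 genes changed sign under an alternative, and changes that were not called did so in 52 instances. For low stretch against no ventilation the count of called genes, 1 in the report, was 0 with only the compared groups in the fit, 2 with array weights, with trend and robust options, with genes above the median level, with centring or with a second quantile normalization, 3 with the array spread as a covariate or without the least alike arrays, and 1 to 3 without 1 array. For CO2 at high stretch the count, 0 in the report, was 1 with only the compared groups, 2 with array weights or genes above the median level, and 0 to 1 without 1 array. The gene lost with only the compared groups was Dusp10 (limma adjusted p 0.0558), and the cause was not tested.

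With the replicate number as a block, low stretch against no ventilation called 3 of the 10. The numbers share no stated origin: over 55 pairs of arrays with the same number, deviations correlated from -0.337 to 0.38 with a median of 0.023. Between low and high stretch normocapnia 4 of 5 pairs were over 0.1, but in none of the 10 pairs of groups were all, so the numbers were not taken to pair the animals. The counts for stretch were 7 to 8 without CO2 and 5 to 7 with it under all alternatives. Fits without single arrays aside, Dusp1 lost its stretch call under 5 settings without CO2 and 2 with it. Dusp6 lost its call with CO2 under 5. Dusp2 and Dusp10 were not tested among genes above the median level. Against no ventilation, Dusp2 in high stretch normocapnia lost its call under 2 settings (limma adjusted p 0.0859 and 0.174). Spry1 in high stretch hypercapnia lost its call under 3 (limma adjusted p 0.0539 to 0.0731).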
